A study of Mus musculus with 7 samples.

Results

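SOX2 and FRA2 binding were compared site by site in the Q7 line of mouse striatal cells, at the places where the 2 deposited event tables list both proteins. A SOX2 event and a FRA2 event were taken as a pair when they lay within 100 bp of each other and each was the other's nearest. This gave 14907 pairs, which hold 56.4% (95% Wilson interval 55.8 to 57.0%) of the 26433 SOX2 events and 23.1% (22.8 to 23.4%) of the 64579 FRA2 events.

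SOX2 is an HMG-box transcription factor of neural stem and progenitor cells that binds the minor groove of DNA and often acts beside a partner protein. FRA2, the product of Fosl2, is a member of the Fos family; it binds DNA as the leucine-zipper dimer AP-1, together with a Jun protein such as JUND. AP-1 is known for binding at distal enhancers, and SOX2 for enhancers of progenitor genes.

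The study applied chromatin immunoprecipitation and sequencing (ChIP-seq) to 2 lines, immortalised cells derived from the embryonic striatum at day 14 in a 129SvEv/CD1 background. Q7 cells (STHdhQ7) have the genotype HdhQ7/Q7, with a huntingtin glutamine tract of unexpanded length on both alleles. Q111 cells (STHdhQ111) have the genotype HdhQ111/Q111, with an expanded tract of the kind found in Huntington's disease. All were below passage 15, grew at 33 °C and spent 2 days at 39 °C before the experiment, which is meant to stop division, so all groups share this shift. Each genotype is represented by a single line. The ratio below uses SOX2 and FRA2 in Q7. JUND in both lines and FRA2 in Q111 serve as further readouts, and SOX2 is listed for Q7 alone. Each sample pools replicates 1 and 2 of 1 line, so the spread between replicates is unknown, and a test between antibodies compares 2 libraries. The tables hold binding positions and no expression, so the cell type could not be checked against its markers.

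Reads in events, the only depth that the tables give, came to 1193914 for SOX2 and 3340554 for FRA2 in Q7. A listed SOX2 event holds at least 20 reads. A listed FRA2 event had to be present in either line, so its Q7 reads can be lower. At the pairs, SOX2 reads ran from 20 to 515.7 with a median of 36 and quartiles of 27 and 56. FRA2 reads in Q7 ran from 2 to 946 with a median of 67 and quartiles of 35.4 and 129. The median pair thus held 1.64 times as many FRA2 as SOX2 reads, a value that depends on the antibodies and the depth. All ratios below, log2 of SOX2 over FRA2 reads with 0.5 added to each, were set relative to this median pair. The deposited control signal, which is control reads times a factor, averaged 4.31 for SOX2 and 4.51 for FRA2 at the pairs. At 3 pairs it was 40 or more in either table.

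Which events found a partner depended on their reads, and for FRA2 more than for SOX2. Of SOX2 events with 20 to 25 reads, 41.9% (40.6 to 43.2%) were in a pair, against 77.0% (71.7 to 81.5%) of the 282 events with 200 or more. Of FRA2 events marked present in Q7, 14.1% (13.3 to 14.9%) of those with 20 to 25 reads were paired, against 76.1% (74.3 to 77.8%) of the 2283 with 200 or more. FRA2 events marked present in Q111 alone, 16597 in number, were paired in 2.39% of cases (2.16 to 2.63%), or 396 pairs. The pairing limit itself fell on a smooth slope. The 592 pairs at 91 to 100 bp had medians of 38 SOX2 and 55.2 FRA2 reads, and the 490 that a wider limit would add at 101 to 110 bp had medians of 38 and 52.7.

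The balance of the 2 proteins varied widely from pair to pair. The SOX2 share of the reads was tested at each pair with a two-sided exact binomial test. With Benjamini-Hochberg adjustment over all pairs and a fold limit of 2, 2950 pairs were called SOX2-rich. These are 19.8% of the pairs. The same rule called 3334 pairs, or 22.4%, FRA2-rich, and 8623 pairs (57.8%) were not called. The median SOX2-rich pair was 2.81-fold and the median FRA2-rich pair 2.90-fold from the median ratio. The ratio was 4-fold or more from the median at 651 SOX2-rich and 746 FRA2-rich pairs, and 8-fold or more at 94 and 48. A pair that was not called is not shown to be balanced. The 95% interval included the median ratio at 5529 pairs (37.1%), fewer than the 8623 that were not called.

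"SOX2-rich" and "FRA2-rich" describe a pair relative to the median pair and give no absolute occupancy. With libraries scaled by the reads in all listed events, 85.1% of the calls were SOX2-rich (6446, with 1133 FRA2-rich). With scaling by the control signal 16.5% were (1162, with 5869 FRA2-rich), against 46.9% with the median scaling. The control signal already carries a factor, so this is not a scaling by depth.

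**Figure D1:**
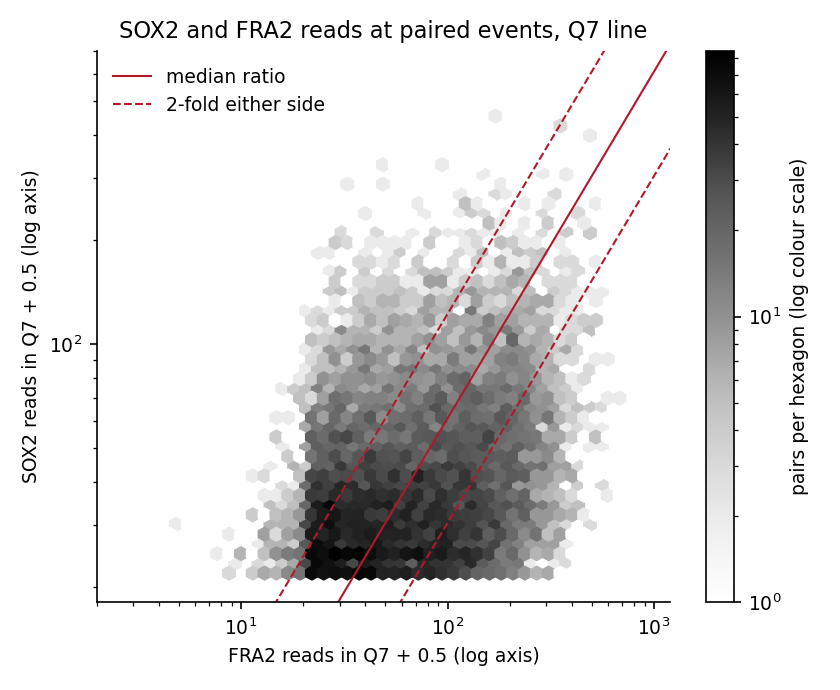
SOX2 reads (vertical) against FRA2 reads (horizontal) in Q7 at the 14907 pairs, both on log axes with 0.5 added; darker hexagons hold more pairs. The solid line marks the median ratio and the dashed lines 2-fold either side. The cloud reaches well beyond the dashed lines, while the quartiles of the log2 ratio (-0.89 and 0.82) lie between them. It stops at 20 SOX2 reads, the lowest value listed.

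The ratio had an SD of 1.20 on the log2 scale. Over the 14558 pairs with at least 20 reads in both libraries the SD was 1.18, where counting error alone would give 0.31, which leaves 1.14. SOX2 and FRA2 reads rose together only loosely, with a Spearman rho of 0.28 and a Pearson r of 0.27 across the 14907 pairs, which share a line and a genome but no IP library. FRA2 reads are the denominator of the ratio, which fell with them (rho of -0.79), and SOX2 reads the numerator (rho of 0.31), so neither correlation is a finding.

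At 12805 pairs the FRA2 event was also paired with a JUND event by the same rule, so the 3 proteins could be set side by side at the same sites. Beyond counting error, and over the 12334 of these sites with at least 20 reads for each protein, the log2 ratio had an SD of 1.14 for SOX2 over FRA2, 0.77 for SOX2 over JUND and 0.58 for FRA2 over JUND. Over all 12805 sites the rank correlation of reads was 0.26 between SOX2 and FRA2, 0.43 between SOX2 and JUND and 0.81 between FRA2 and JUND. By rank correlation SOX2 reads were thus closer to JUND reads than to FRA2 reads at these sites, and the 2 AP-1 subunits closest to each other. The SDs also depend on how widely the reads of each protein vary, which was not separated out. With 1 pooled library per protein these differences between correlations could not be tested, and the antibodies differ.

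The SOX2-rich pairs with the farthest intervals combined strong SOX2 events with weak FRA2 events. The 10 taken by the rule for named pairs held 185 to 428 SOX2 reads (median 271.9) and 15.3 to 35.7 FRA2 reads (median 27.4). The first in rank was on chromosome 3, where the SOX2 event at position 19854044 (mm9, as are all positions here) had 428 reads and the FRA2 event 46 bp away had 34.1. This is 20.3-fold above the median ratio (95% Clopper-Pearson interval 14.5 to 30.2, exact binomial test, adjusted p = 2.63e-132). JUND was not low there: its event 11 bp from SOX2 had 104 reads in Q7 and 68.6 in Q111.

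Another strong SOX2 site lay 2976 bp from that one. At chromosome 3 position 19857020 SOX2 had 515.7 reads, the most at any pair, and FRA2, 8 bp away, had 84.5, which is 9.95-fold above the median ratio (7.98 to 12.8). The FRA2 event had 66 reads in Q111, and JUND had 140.8 in Q7 and 115 in Q111. Neither protein was called different between the lines at these 2 sites, by the same test and fold limit on the reads of the 2 lines, centred on events present in both.

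Other SOX2-rich pairs had few or no AP-1 reads in Q111. At chromosome 2 position 25036210 SOX2 had 273 reads beside 24 FRA2 reads in Q7, 80 bp away, which is 18.3-fold above the median ratio (12.3 to 29.6), and the FRA2 event kept 2 reads in Q111. At chromosome 19 position 12834484 SOX2 had 295.7 reads. FRA2 reads went from 31.1 in Q7 to 4.8 in Q111 there, and JUND reads, 9 bp from SOX2, from 38.5 to 0. At chromosome 1 position 161052388 SOX2 had 270.8 reads, while FRA2 went from 29.8 to 2.1 between the lines and JUND from 66 to 6. FRA2 was called higher in Q7 at 6 of the 10 pairs and higher in Q111 at none. Over all FRA2 events the shares are 21.7% and 23.6%, over all pairs 35.0% and 3.41% and over SOX2-rich pairs 46.2% and 6.20%, and the call uses the Q7 FRA2 reads by which the 10 were chosen, so nothing is read from the count.

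Some of the 10 kept their AP-1 reads. At chromosome 5 position 104837064 SOX2 had 185 reads. The FRA2 event, 6 bp away and marked present in Q111 alone, had 15.3 Q7 reads and 29.2 Q111 reads, and JUND had 40.6 and 32.8. At chromosome 1 position 90422784 SOX2 had 307 reads, beside 34.8 (Q7) and 33.6 (Q111) FRA2 reads. JUND had an event within 100 bp of either position at 9 of the 10, and at 13213 of all 14907 pairs. The exception was chromosome 3 position 119065129, with 237.3 SOX2 and 21 FRA2 reads in Q7 and 2 FRA2 reads in Q111. The control signal at the 10 pairs ran from 0.3 to 5.4 for SOX2 and from 0 to 6 for FRA2.

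The FRA2-rich pairs with the farthest intervals paired some of the strongest FRA2 events with SOX2 events near the listing limit. The 10 held 406 to 946 FRA2 reads (median 661.1) and 21 to 50 SOX2 reads (median 26.5). At chromosome 17 position 66310997 SOX2 had 22 reads and FRA2, 7 bp away, had 791.8, which is 21.5-fold below the median ratio (14.4 to 35.3, adjusted p = 2.62e-127 by the exact binomial test). JUND had 154.2 reads in Q7 there. The SOX2 event at chromosome 8 position 81674658 had 25 reads, and its FRA2 partner 627.2 in Q7 and 1016.8 in Q111. On chromosome 10, at position 123575684, SOX2 had 50 reads and FRA2 had 946, the most at any pair. The ratio was 11.4-fold below the median (8.69 to 15.7).

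The same FRA2-rich sites also had strong AP-1 events in Q111. Both lines carried the present mark at all 10 FRA2 events, and none was called different between them, with 331 to 1078.6 reads in Q111. Of all 14907 pairs 9965 carry both marks, and FRA2 was called higher in Q7 at 35.0% and higher in Q111 at 3.41%. The 10 were chosen for high FRA2 reads in Q7, which the marks and the call use. JUND was present at all 10, with 105 to 351 reads in Q7 and 74 to 235.2 in Q111, and was called different at 1, the chromosome 10 pair above (351 in Q7 and 143 in Q111). JUND was called higher in Q7 at 36.1% of all pairs with a JUND event and at 23.6% of all JUND events, and higher in Q111 at 3.53% and 17.7%. At chromosome 19 position 20468256 neither AP-1 subunit was called different between the lines. There 36 SOX2 reads stood beside 695 (Q7) and 753 (Q111) FRA2 reads and 179 and 188 JUND reads. At chromosome 5 position 130024165 SOX2 had 28 reads, FRA2 568 and 556, and JUND 151 and 144.

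A further set holds the 10 pairs at which both proteins were strong, with at least 331.4 reads each. Their ratios ran from 1.08-fold below to 2.31-fold above the median ratio. At chromosome 15 position 71533704 SOX2 had 494 reads and FRA2, 7 bp away, had 876.3, among the 5 highest values of each protein at pairs; its interval includes the median ratio (adjusted p = 0.22 by the exact binomial test). On chromosome 4, at position 53240856, SOX2 had 462 reads and FRA2, 4 bp away, 517 Q7 reads against 171 Q111 reads, and JUND went from 246 to 89. At chromosome 10 position 79363946 SOX2 had 409 reads, while FRA2 went from 481 reads in Q7 to 67 in Q111 and JUND from 245 to 33. FRA2 was called higher in Q7 at 5 and JUND at 6 of these 10 pairs, beside 35.0% and 36.1% of all pairs, and counts of 10 do not set them apart. At chromosome 15 position 58311993 FRA2 was not called different between the lines (343.9 and 399.7 reads), beside 484.8 SOX2 reads.

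SOX2 and FRA2 sat near each other but less closely than the 2 AP-1 subunits. The distance within a SOX2 and FRA2 pair had a median of 34 bp and quartiles of 16 and 57 bp. It was at most 20 bp at 31.4% of pairs, and the 2 positions were identical at 116. SOX2 and JUND pairs, made by the same rule (16367 pairs), also had a median of 34 bp, and FRA2 and JUND pairs (35176) a median of 14 bp with 63.7% at 20 bp or less. At the 12805 sites with all 3 proteins the medians were 33, 32 and 14 bp. FRA2 and JUND were the closest of the 3 couples at 59.2% of these sites (58.3 to 60.01%), and SOX2 lay between them at 15.3%.

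**Figure D2:**
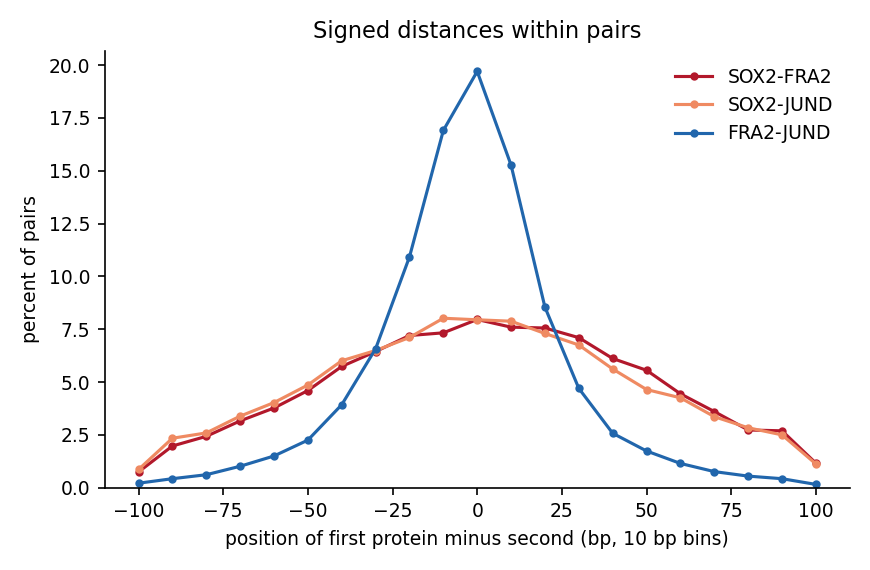
Signed distance along the reference strand (horizontal, in bp, in 10 bp bins; the outermost bins are narrower because the limit is 100 bp) against the percent of pairs (vertical) for SOX2-FRA2, SOX2-JUND and FRA2-JUND pairs. Both curves with SOX2 are broad and nearly alike, while FRA2-JUND distances gather near 0.

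The positions carry no strand, so the sign of a distance only says which protein lies at the higher coordinate. SOX2 did at 52.3% (51.5 to 53.1%) of the pairs whose positions differ, and the median signed distance was 3 bp. FRA2 and JUND pairs leaned the other way, with FRA2 at the higher coordinate in 44.6% (44.0 to 45.1%) and a median of -3 bp, and SOX2 and JUND pairs did not lean (49.9%, 49.1 to 50.6%). The shift of a few bp thus went with the FRA2 table, and it is small beside the median distance.

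The SOX2 to FRA2 distance did not shrink as reads grew. Where the smaller of the 2 read numbers was under 30 the median distance was 34 bp (6358 pairs), at 60 to 100 reads it was 35 bp, at 100 to 200 reads 37 bp and at 200 or more 39 bp (76 pairs). FRA2 and JUND distances did shrink over the same steps, from 17 bp to 11, 10 and 7 bp. For SOX2 and JUND the values were 35, 33, 32 and 30 bp. The strongest SOX2 and FRA2 events were thus as far apart as the weak ones. No test was made, since pairs are not replicates.

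**Figure D3:**
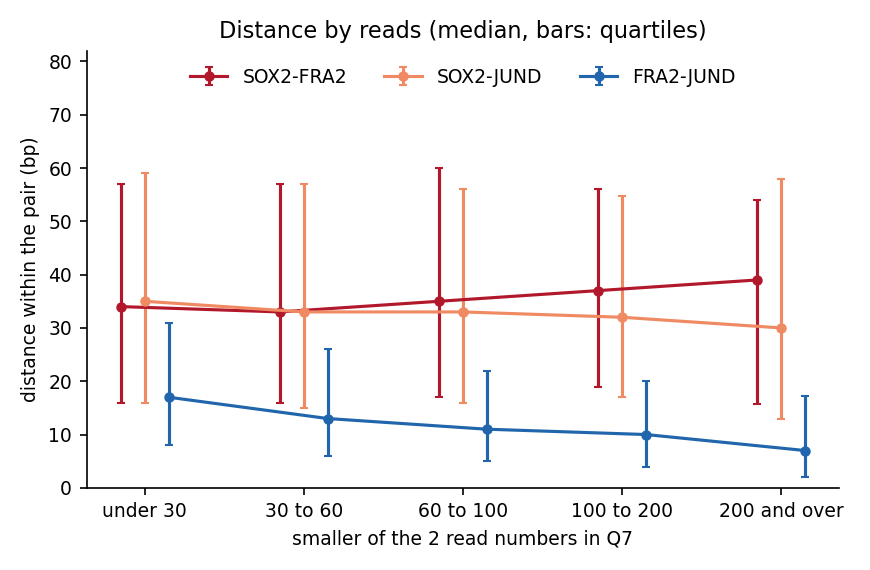
Distance within pairs (vertical, bp) by the smaller of the 2 read numbers in Q7 (horizontal); points are medians and bars span the quartiles. The FRA2-JUND median goes from 17 to 7 bp, while the SOX2-FRA2 median stays between 33 and 39 bp.

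JUND positions give the same side of SOX2 at most of the 12805 sites, which is largely fixed by how they were chosen: the JUND event there is the one paired with the FRA2 event, at a median of 12 to 16 bp from it. Where SOX2 lay 50 to 100 bp from FRA2, SOX2 was on the same side of JUND at 96.1% of sites (95.5 to 96.7%), at a median distance of 61 bp. At 20 to 29 bp the share was 83.3% (81.5 to 84.9%), and under 10 bp, with identical positions left out, 59.4% (57.1 to 61.7%). The 2 distances share the SOX2 position, so an error in that position moves both. Pairs that lay closer leaned towards FRA2: the median ratio was -0.13 at 0 to 5 bp and rose to 0.11 at 51 to 75 bp and 0.22 at 76 to 100 bp, with median FRA2 reads of 71, 63 and 57. SOX2 reads hardly varied with distance (medians of 36, 38 and 37). The difference in median ratio between pairs at 20 bp or less and pairs over 50 bp was -0.24, and it was -0.16 once events within 200 bp of each other were merged.

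JUND was found at nearly all FRA2-rich pairs and at fewer SOX2-rich ones. A JUND event, from the table of both lines, lay within 100 bp of either position at 3324 of the 3334 FRA2-rich pairs (99.7%, 99.4 to 99.8%), at 87.6% (86.9 to 88.3%) of pairs not called and at 2331 of the 2950 SOX2-rich pairs (79.0%, 77.5 to 80.4%). FRA2 reads differ between these classes, with medians of 169, 61 and 29, and JUND was found more often where FRA2 had more reads. The 1694 pairs without JUND had medians of 30 SOX2 and 29 FRA2 reads and a median ratio of 0.80, against -0.15 for the 13213 pairs with JUND.

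Among pairs of like FRA2 reads, JUND was found more often where SOX2 was higher in the 3 groups with the fewest FRA2 reads. The pairs were divided into 5 groups by FRA2 reads, and each group into 3 equal parts by SOX2 reads. In the FRA2 group with the fewest reads, JUND was found at 59.2% of the pairs in the lowest SOX2 part (medians of 24 FRA2 and 23 SOX2 reads) and at 74.3% in the highest (25 and 51.7 reads). In the next groups the shares were 79.4% and 87.4%, and 93.8% and 96.6%. In the 2 groups with the most FRA2 reads JUND was found at 98.9% or more of pairs in every part. In the lower of these 2 groups the share fell slightly with SOX2 (99.6%, 99.1% and 98.9%). The classes of the ratio are themselves defined by FRA2 reads, and what lies behind their JUND shares was not tested.

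JUND reads in Q7 rose with SOX2 reads in each of the 5 FRA2 groups. In the middle group, where median FRA2 reads were 67, 66.7 and 67.6, median JUND reads in Q7 were 35, 39.9 and 49 from the lowest to the highest SOX2 part. In the group with the most FRA2 reads they were 82.4, 98 and 120, although there FRA2 rose too (199, 213 and 230.7). JUND reads in Q111 did not follow SOX2 in the same way. They were 26.1, 26.8 and 25 in the middle group, and 26, 26 and 21 in the group with the fewest FRA2 reads. In the group with the most FRA2 reads they went from 68 to 75.

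The JUND difference between the lines moved with SOX2 within the FRA2 groups. Median FRA2 reads were nearly equal over the SOX2 parts in the 3 groups with the fewest FRA2 reads, and rose with SOX2 in the other 2, up to 116.5 and from 199 to 230.7. The median log2 of JUND reads in Q111 over Q7, centred on events present in both lines, went from -0.45 to -0.72 and -1.01 over the 3 SOX2 parts of the middle FRA2 group. It went from -0.07 to -0.72 in the group with the fewest FRA2 reads and from -0.32 to -0.80 in that with the most. The share of JUND events called higher in Q7 rose from 30.1% (27.3 to 33.1%) to 50% (46.9 to 53.1%) in the middle group and from 22.2% (19.7 to 24.9%) to 43.4% (40.3 to 46.5%) in the group with the most FRA2 reads. The intervals take pairs as independent, while adjacent pairs were alike in the JUND difference, so the intervals may be too narrow. SOX2 reads shared no IP library with this JUND difference. Both do share the Q7 line, and SOX2 was not measured in Q111, so whether the pattern follows SOX2 or another property of these sites in Q7 was not tested.

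**Figure D4:**
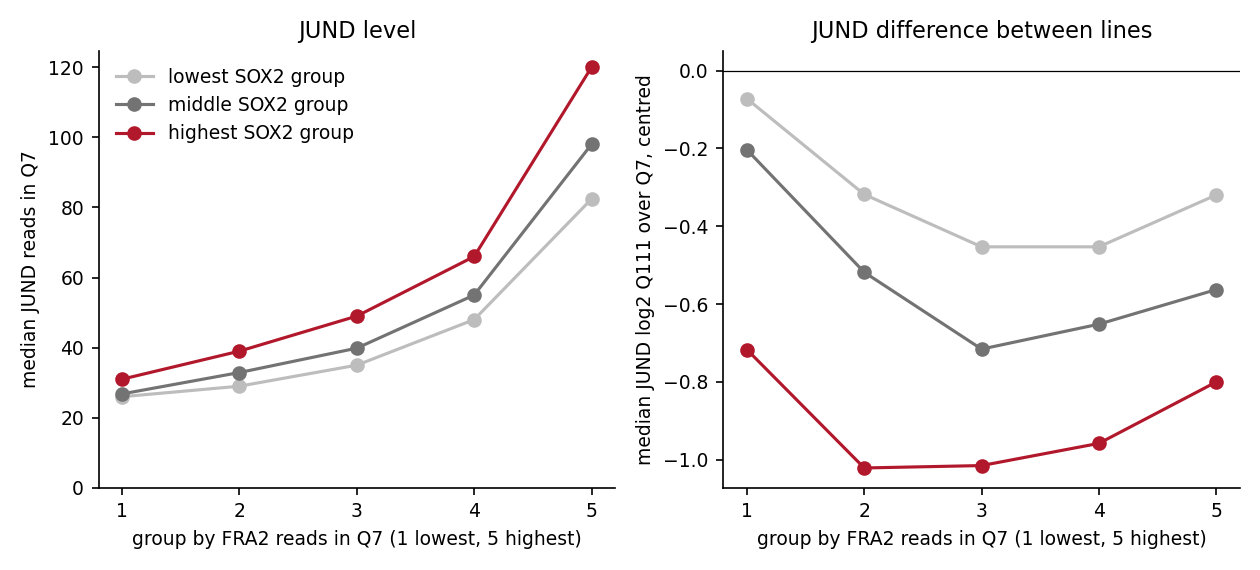
Median JUND reads in Q7 (left) and median log2 JUND reads in Q111 over Q7 (right) for pairs grouped by FRA2 reads in Q7 (horizontal, 1 lowest to 5 highest), with a line for each of 3 equal SOX2 parts. In every FRA2 group the highest SOX2 part has the most JUND in Q7 and the lowest Q111 over Q7 value.

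Across pairs, SOX2 reads tracked the AP-1 reads of Q7 and barely those of Q111. The rank correlation with SOX2 was 0.28 for FRA2 in Q7 and 0.08 for FRA2 in Q111 (14907 pairs), and 0.44 for JUND in Q7 and 0.09 for JUND in Q111 (13213 pairs). These are descriptions over pairs that share libraries, listing limits and depth.

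Both AP-1 subunits were more often higher in Q7 at the pairs than over their whole tables. Of the FRA2 events in pairs 35.0% (34.2 to 35.8%) were called higher in Q7 and 3.41% (3.13 to 3.72%) higher in Q111, against 21.7% and 23.6% of all FRA2 events. For JUND the shares were 36.1% (35.3 to 36.9%) and 3.53% (3.23 to 3.86%), against 23.6% and 17.7% of all JUND events. Pairs were formed with SOX2 events of Q7, and FRA2 events with more Q7 reads were paired more often. SOX2-rich pairs had the larger share of JUND events higher in Q7, 43.6% (41.6 to 45.7%), against 37.9% (36.8 to 39.0%) of pairs not called and 26.7% (25.2 to 28.2%) of FRA2-rich pairs. JUND higher in Q111 was also least frequent at FRA2-rich pairs, at 1.99% (1.56 to 2.52%), against 6.35% (5.43 to 7.41%) at SOX2-rich ones. The same shares for FRA2 (46.2% and 6.20% at SOX2-rich pairs, 20.8% and 1.5% at FRA2-rich pairs) use the FRA2 reads in Q7 that are part of the ratio. JUND reads in Q7 track those FRA2 reads (rho of 0.80, 13213 pairs), so the JUND shares are not independent of the ratio either.

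The ratio did not change in 1 direction with the JUND difference. Its median was 0.40 where JUND was over 8-fold lower in Q111 (529 pairs), fell to -0.41 where JUND differed by -1 to -0.5 on the log2 scale (2215 pairs) and rose again to 0.30 between 1 and 2 (417 pairs) and 0.96 above 2 (53 pairs). SOX2 reads fell steadily over the same classes, with medians of 56, 39, 30 and 27, while FRA2 reads in Q7 were highest in the middle (72.6, 91.8, 44 and 25). The classes use JUND reads in Q7, which track FRA2 reads in Q7, the denominator of the ratio (rho of 0.80, 13213 pairs). Above 2, JUND had a median of 14 reads in Q7, while a listed SOX2 event holds at least 20. The rise of the ratio there is thus not read as a result. The difference in median ratio between pairs with JUND called higher in Q7 and higher in Q111 was -0.32, but -0.032 when only FRA2 events marked present in Q7 were paired.

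The deposited FRA2 marks divide the pairs in another way. Both lines carried the FRA2 mark at 9965 pairs, with medians of 37 SOX2 reads and 97.6 and 75.7 FRA2 reads in Q7 and Q111. The mark was for Q7 alone at 4546 pairs, with medians of 35 SOX2 reads and 35 and 12 FRA2 reads. SOX2 reads were nearly equal in both classes. FRA2 reads differ between the classes by construction, since the marks use them, so that contrast is not a finding. At the 396 pairs marked in Q111 alone SOX2 had a median of 28 reads, and FRA2 16 in Q7 and 28 in Q111.

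Neighbouring pairs hardly shared their SOX2 to FRA2 ratio. The Pearson r between adjacent pairs was 0.16 for gaps of up to 300 bp (104 neighbours), 0.11 from 300 bp to 1 kb (899 neighbours) and 0.04 from 1 to 10 kb (2754 neighbours). At the same pairs the FRA2 difference between the lines was shared by neighbours, with r of 0.72, 0.53 and 0.25 over these gaps, and the JUND difference likewise with 0.63, 0.54 and 0.25. The ratio of the 2 proteins in 1 line thus varied from site to site, whereas the difference between the lines extended over neighbouring sites. These are descriptions: adjacent pairs share libraries, and for gaps of up to 300 bp they may share reads.

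**Figure D5:**
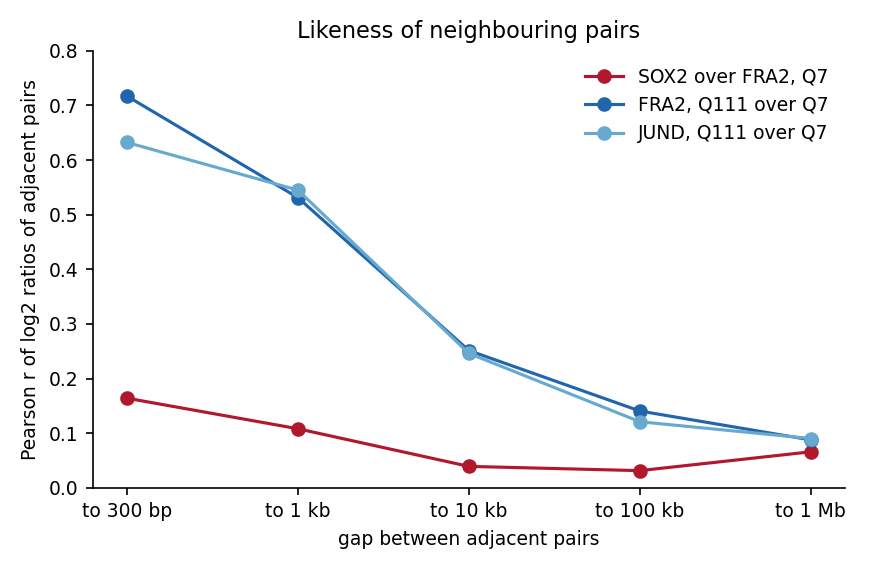
Pearson r between adjacent pairs (vertical) by the gap between them (horizontal) for the SOX2 over FRA2 ratio in Q7 and for the FRA2 and JUND log2 ratio of Q111 over Q7. The SOX2 over FRA2 line stays at or below 0.16, while both line differences start above 0.6.

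The median ratio varied little between chromosomes. Medians of megabase windows spread more, but each rests on far fewer pairs, so the spreads cannot be compared. Over 20 chromosomes with 201 to 1119 pairs, the median ran from -0.11 on chromosome 7 to 0.20 on chromosome X. On X both proteins had fewer reads (medians of 33 for SOX2 and 53 for FRA2). Of the 94 windows of 1 Mb with at least 20 pairs, the most FRA2-rich was chromosome 8 from 124 to 125 Mb, with a median ratio of -1.34, 12 of 22 pairs called FRA2-rich and 3 SOX2-rich. The next was chromosome 10 from 76 to 77 Mb, with a median of -1.03 and 10 of 20 pairs FRA2-rich. The most SOX2-rich were chromosome 9 from 41 to 42 Mb (median 0.86, 13 of 32 pairs SOX2-rich and 6 FRA2-rich) and chromosome 1 from 165 to 166 Mb (median 0.83, 9 of 21 SOX2-rich and 1 FRA2-rich). In all 4 windows pairs of both kinds occurred. Over all pairs 22.4% were FRA2-rich and 19.8% SOX2-rich. These are the extremes of 94 windows with few pairs each, given as a description. Genes, exons and the DNA sequence at these positions are not given, because no genome or annotation of mm9 was used here.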

How the data were processed

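ChIP-seq events of SOX2, FRA2 and JUND were used; the labels list 7 samples, each pooled from 2 replicates. Reads were aligned with Bowtie 0.12.7 to mm9, per the submitters' processing notes. The names of the deposited tables give GPS as the event caller, with no version or settings. Their IP values, as deposited, are expected counts, not scaled, that were rounded for tests; 68.5% of pairs had whole numbers in both tables. The deposited control columns are a signal, control reads times a factor, and the deposited q-values are −log10 values; 22 further value columns were not used. No genome of the same build was used, so sequences, genes and the planned gene loci are not reported.

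Pairs, ratios and exact binomial tests were computed with Python 3.11.15, numpy 2.4.6, pandas 2.3.3 and scipy 1.17.1, and tested on simulated data. Called pairs have an adjusted p (Benjamini-Hochberg) below 0.05 and a fold of at least 2. Intervals cover counting error only, since PCR reads are not independent molecules, and p-values compare 2 pooled libraries, not conditions. Wilson intervals of shares take events or pairs as independent. Neighbouring pairs shared the differences between the lines, so the intervals for shares of line calls may be too narrow. The rule for named pairs takes 10 called pairs per direction with the interval farthest from the median ratio, the 10 with the largest smaller read number, and the 5 with the most SOX2 and the 5 with the most FRA2 reads, in all 33 pairs. Members, rules and alternatives were chosen with earlier results of these data known. The alternatives changed the pairing, scaling, pseudocount, read and q-value limits, control treatment, merging, assumed dispersion and fold limit.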

Additional observations from a re-analysis of the deposited data

How the results depend on the processing

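No paired analysis was possible because each antibody has 1 pooled sample per line, and for the same reason no replicate could be left out. The counts of called pairs moved most with the scaling, whose values stand in the report (6446 SOX2-rich and 1133 FRA2-rich by reads in all events, 1162 and 5869 by control signal). An assumed dispersion of 0.05 gave 1622 SOX2-rich and 2006 FRA2-rich pairs, and a fold limit of 3 gave 1278 and 1544. A deposited −log10 q of at least 5 in both tables left 8265 pairs with 1498 and 1576 calls. At these the SD of the ratio was 1.12 (1.09 beyond counting error), and the JUND difference between Q7-higher and Q111-higher pairs was -0.089. Of the 33 named pairs, 18 were little changed under this q limit and 2 newly passed the fold limit of 2. The other named pairs were left out by it, among them chromosome 17 position 66310997 and chromosome 2 position 25036210. Pairs with whole reads in both tables gave 1905 SOX2-rich calls, SDs of 1.15 and 1.09, 53.2% with SOX2 at the higher coordinate, 32.8% within 20 bp and a difference of -0.17 between near and far pairs. The SD of the ratio was 1.18 with FRA2 events marked present in Q7 and with at least 20 reads in both, 1.12 with a pseudocount of 5 and 1.31 with the control signal subtracted (1.20 beyond counting error). The difference between pairs whose JUND event was higher in Q7 and in Q111 was -0.032 with FRA2 marked present in Q7 and -0.064 with at least 20 reads in both. The difference between pairs with and without JUND was -0.95 as reported, -0.87 with a pseudocount of 5, -1.05 with the control signal subtracted and -0.996 with adjacent events merged.

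A pairing limit of 50 bp gave a median distance of 23 bp, 45.7% within 20 bp and 51.3% with SOX2 at the higher coordinate, and a limit of 200 bp gave 40 bp, 27.2% and a difference between near and far pairs of -0.33. With adjacent events merged the latter was -0.16. Of the named pairs, the log2 ratio changed sign at 4 of the strong pairs under scaling by the control signal: chromosome 10 positions 121341334 (-0.088), 79363946 (-0.17) and 110241643 (-0.28) and chromosome 4 position 53240856 (-0.10). It became 0.66 at chromosome 15 position 71533704 with scaling by reads in all events, and -0.16 at chromosome 10 position 121341334 with adjacent events merged. The cause was not tested beyond what each setting changes by construction. At a median of 36 SOX2 reads, counting error limits single pairs, and pairs that were not called are not shown to be balanced.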
